A study of Mus musculus with 10 samples.

Results

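The interleukin 1 (IL-1) system and its inflammasome genes were followed as 10 genes in bone marrow neutrophils of mice with and without Lcn2, before and after fMLP. The 10 genes are 3 ligands (Il1b, Il1a and Il18), 1 antagonist (Il1rn), 3 receptor chains (Il1r2, Il1rap and Il18rap) and 3 inflammasome components (Nlrp3, Pycard and Casp1). They are 10 of the 19938 genes that have a probe set naming a single gene on the array, and each has 1 such probe set. Of the 10, 8 were bright enough to be tested among 14070 genes, and Il1a and Il18 were not.

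RNA of neutrophils taken from a Percoll density gradient was hybridised to 10 Mouse Gene ST arrays of Affymetrix, and the study set out to learn the role of lipocalin 2 with and without stimulation. All groups came from C57bl/6 mice given as female and 10 weeks old. The fMLP_KO cells (2 arrays) were Lcn2 knockout neutrophils treated with fMLP, a formylated peptide of the bacterial type that attracts and activates neutrophils, at 10 µM for 20 minutes at 37 °C. The fMLP_WT cells (2 arrays) were wild type neutrophils under the same treatment. The unstim_KO cells (3 arrays) were unstimulated knockout neutrophils, and the unstim_WT cells (3 arrays) were unstimulated wild type neutrophils. The labels do not say whether replicates were separate animals, nor at what temperature unstimulated cells were kept, so p-values measure the spread between these arrays, which may be technical.

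IL-1 beta and IL-18 are made as inactive precursors, and an inflammasome turns them into active cytokines. The sensor NLRP3 gathers the adaptor ASC (gene Pycard), which brings together the protease caspase-1 (gene Casp1) that cuts both precursors. IL-1 acts through a receptor that needs the accessory chain IL1RAP. The antagonist IL1RN occupies that receptor without signalling, and the decoy receptor IL1R2 binds IL-1 without passing a signal on. Neutrophils make and release IL-1 beta and are known for abundant IL1R2.

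Promoters of 4 members are shown: Il1b and Il1r2, with positive fMLP differences, and Casp1 and Pycard, with negative ones. None of these differences passed the test with all arrays. Each is the stretch of 250 bases before the gene's start, 5′ to 3′ on the gene's strand, from RefSeq on build GRCm38.p6, with motif matches in capitals. The Il1b promoter lies at chr2:129371140-129371389 (minus strand), that of Il1r2 at chr1:40085843-40086092 (plus strand), that of Casp1 at chr9:5298267-5298516 (plus strand) and that of Pycard at chr7:127993868-127994117 (minus strand).
Il1b: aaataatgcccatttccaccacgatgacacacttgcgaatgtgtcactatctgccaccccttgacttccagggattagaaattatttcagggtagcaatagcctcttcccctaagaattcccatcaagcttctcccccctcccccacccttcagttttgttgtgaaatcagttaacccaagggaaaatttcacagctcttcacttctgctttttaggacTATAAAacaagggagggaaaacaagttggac
Il1r2: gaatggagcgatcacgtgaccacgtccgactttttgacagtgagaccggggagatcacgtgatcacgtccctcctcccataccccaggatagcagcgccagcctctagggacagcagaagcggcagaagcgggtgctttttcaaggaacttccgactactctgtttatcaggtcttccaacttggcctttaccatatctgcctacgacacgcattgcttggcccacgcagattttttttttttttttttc
Casp1: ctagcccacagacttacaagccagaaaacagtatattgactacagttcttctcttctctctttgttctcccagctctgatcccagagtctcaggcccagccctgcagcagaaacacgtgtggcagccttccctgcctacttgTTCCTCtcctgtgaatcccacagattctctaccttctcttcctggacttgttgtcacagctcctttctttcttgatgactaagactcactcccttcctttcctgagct
Pycard: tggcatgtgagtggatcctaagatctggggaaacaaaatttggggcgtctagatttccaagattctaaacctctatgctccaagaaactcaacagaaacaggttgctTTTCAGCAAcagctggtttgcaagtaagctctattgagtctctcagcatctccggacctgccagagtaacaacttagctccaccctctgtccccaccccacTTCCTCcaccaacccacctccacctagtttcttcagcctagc

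Both strands were searched for words like the kappa B site (GGGA or GGGG, then 4 bases of any kind, then CC), TGACTCA and TGAGTCA (the AP-1 site), TGACGTCA (the CRE), TTGCNNNAA (like the C/EBP site), GAGGAA (like the PU.1 site) and TATAAA (the TATA box). No motif overlapped another in the 4 promoters. Il1b held a TATA box 26 to 31 bases before its start, an element found in 12.4% of all 32851 promoters of this length. Il1r2 held none of the motifs. Casp1 and Pycard each held 1 PU.1-like match, as did 23.3% of all promoters, and Pycard also held 1 C/EBP-like match, as did 8.29%. Kappa B-like words stood in 28.4% of all promoters, AP-1 words in 4.46% and CRE words in 1.55%, and the 4 promoters held no match to any of these in this window. All 10 members had a promoter in the table, 8 of them with a single start site. Among the other members, Il1a held an AP-1 word 6 to 12 bases before its start and Il1rn held one 135 to 141 bases before one of its starts. PU.1-like words stood before Il1a (1 match), Il18rap (2 matches) and 1 start of Nlrp3 (3 matches). TATAAA stood 27 to 32 bases before the start of Il1a, and 170 to 175 bases before that of Il18 on the opposite strand. Kappa B-like words stood before Il1rap (3 matches) and before 1 start each of Il1rn and Nlrp3. In Il1rap, the matches at 110 to 119 and 109 to 118 bases before the start overlapped on opposite strands.

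The values were spread more narrowly on some arrays than on others. Array set 1 consists of replicates 1 and 2 of both unstimulated groups, with an interquartile range of 1.64 to 1.68 on the log2 scale, and array set 2 of replicate 3 of both with the 4 fMLP arrays, at 2.47 to 2.59. The labels do not name these sets, and fMLP arrays occur in set 2 only. Lcn2, the deleted gene, read 8.09 to 9.60 on the 5 knockout arrays and 13.88 to 14.16 on the 5 wild type arrays, and its log2 difference was -5.39 unstimulated (adjusted p = 0.00266) and -5.14 after fMLP (adjusted p = 0.0189, limma). With the replicate number as a block in place of the array set, the difference after fMLP was no longer called. The neutrophil markers Ly6g and S100a8 read at least 11.89 and 13.30 on every array. Replicate 2 of fMLP_KO carried neuron transcripts: the mean of 11 neuron markers was 10.90 there, against 7.28 to 7.40 on the other 3 fMLP arrays, and Snap25 reached 13.43. Xist, the transcript of the inactive X chromosome, read 9.83 to 11.12 on the fMLP arrays, 6.88 to 6.94 on the unstimulated arrays of set 2 and 7.73 to 7.82 on those of set 1. The Y-linked gene Eif2s3y ran the other way in set 2, with 5.36 to 6.48 on the fMLP arrays and 9.59 to 9.83 on the unstimulated arrays, and read 6.77 to 7.22 on set 1. These 2 genes go against the label "female" for the unstimulated arrays of set 2, so that sex and fMLP cannot be told apart in any fMLP difference below. Without those arrays, no fMLP difference within set 2 can be formed. On set 1 both genes read below 8.18, the median of all values, so the label is not borne out there.

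**Figure D1:**
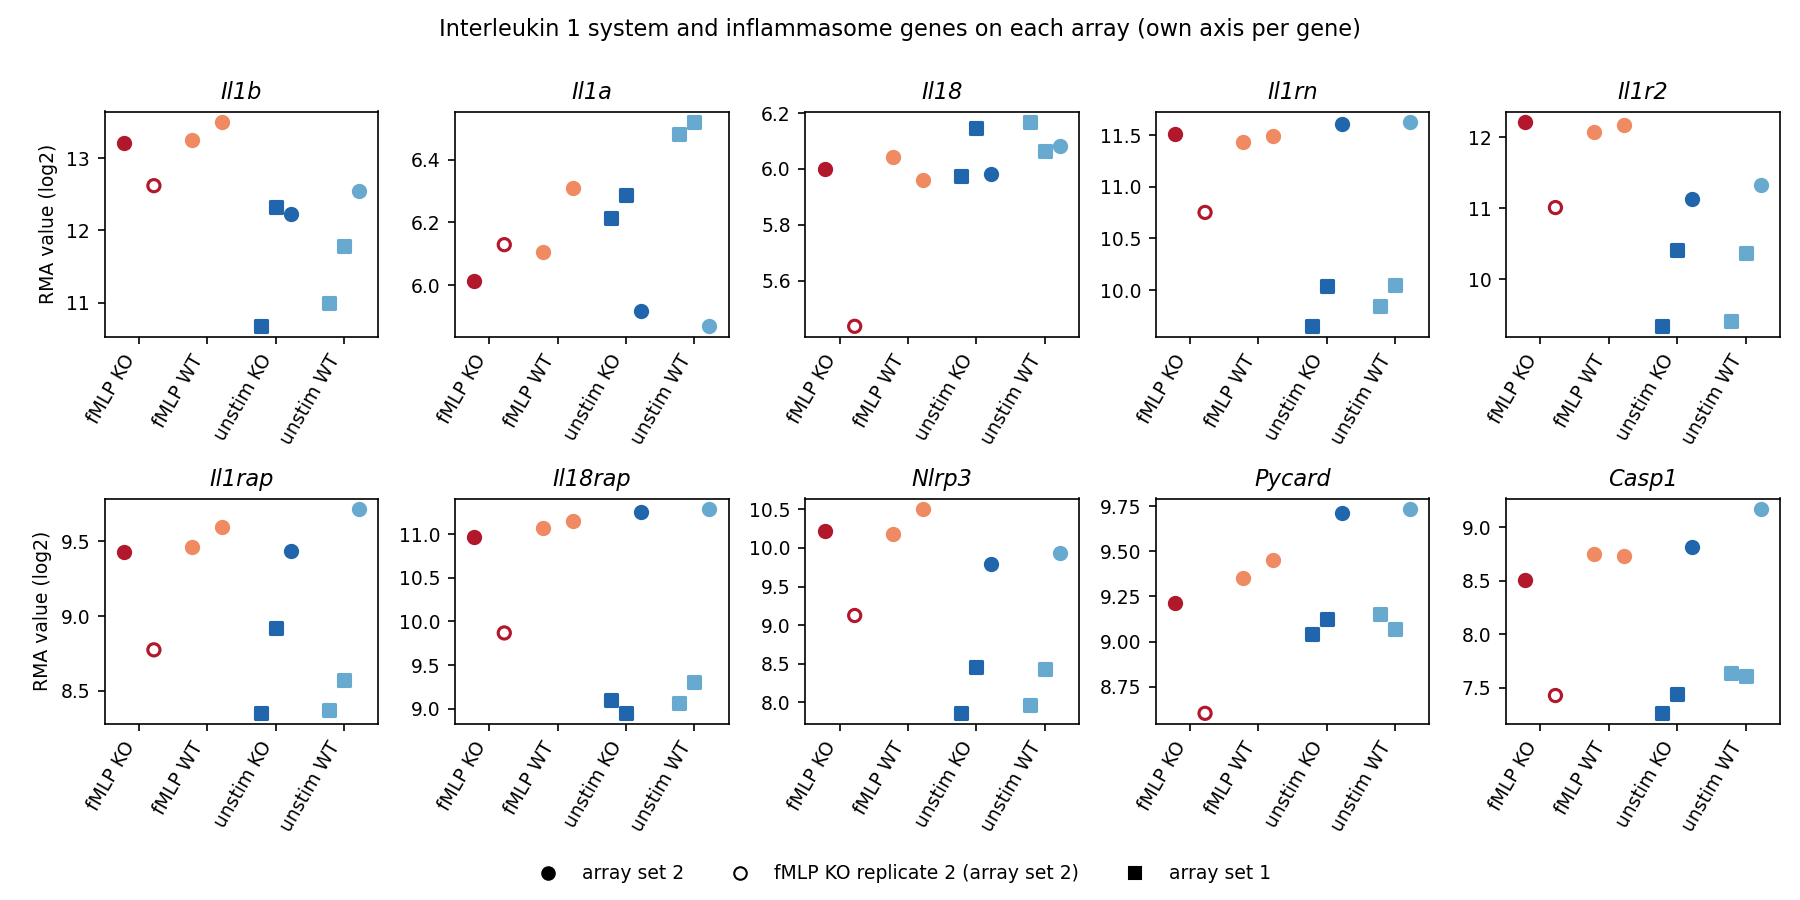
RMA value on the log2 scale (vertical axis, own range per gene) of the 10 genes on each of the 10 arrays, in the groups fMLP KO, fMLP WT, unstimulated KO and unstimulated WT. Circles are arrays of set 2, squares arrays of set 1, and the open circle is fMLP KO replicate 2. The squares lie below the unstimulated circles for all 8 tested genes apart from 1 Il1b array, and the open circle lies below the other 3 fMLP arrays for all 8.

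Among the ligands, Il1b (Entrez gene 16176, chromosome 2) was bright in every group, at percentile 95.6 to 99.5 of all probe sets of an array. It read 13.22 and 12.62 in fMLP_KO, 13.26 and 13.51 in fMLP_WT, 10.67, 12.33 and 12.22 in unstim_KO, and 11.00, 11.78 and 12.55 in unstim_WT. All 4 fMLP arrays were above all 6 unstimulated arrays. The third member of each unstimulated group is in set 2, and against these the fMLP arrays were higher by a log2 difference of 0.76 (SE 0.43), or 1.70-fold, which did not pass the test (limma, adjusted p = 0.467).

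Il1a (chromosome 2), the ligand that is active without cleavage, and Il18 (chromosome 9) had values below the cut-off of 8.18, the median of all values, on all 10 arrays. Il1a read 6.01 and 6.13 in fMLP_KO, 6.11 and 6.31 in fMLP_WT, 6.21, 6.29 and 5.92 in unstim_KO, and 6.48, 6.52 and 5.87 in unstim_WT. Il18 read 6.00 and 5.44 in fMLP_KO, 6.04 and 5.96 in fMLP_WT, 5.97, 6.15 and 5.98 in unstim_KO, and 6.17, 6.06 and 6.08 in unstim_WT. At percentiles 10.4 to 17.4 and 8.90 to 14.7, both signals lay in the dim part of the arrays, and neither was tested.

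Il1rn (Entrez gene 16181, chromosome 2), the receptor antagonist, read 11.52 and 10.75 in fMLP_KO, 11.44 and 11.49 in fMLP_WT, 9.65, 10.04 and 11.61 in unstim_KO, and 9.84, 10.05 and 11.63 in unstim_WT. Within set 2 every fMLP array was below both unstimulated arrays, while every fMLP array was above the unstimulated arrays of set 1. The log2 difference was -0.32 (SE 0.21, limma adjusted p = 0.524).

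Among the receptor chains, the decoy Il1r2 (Entrez gene 16178, chromosome 1) read 12.22 and 11.01 in fMLP_KO, 12.07 and 12.17 in fMLP_WT, 9.34, 10.42 and 11.13 in unstim_KO, and 9.41, 10.38 and 11.33 in unstim_WT. Of the fMLP arrays 3 were above all 6 unstimulated arrays, and fMLP_KO replicate 2 was below both unstimulated arrays of set 2. The log2 difference was 0.64 (SE 0.42, limma adjusted p = 0.530). The accessory chain Il1rap (chromosome 16) read 9.43 and 8.77 in fMLP_KO, 9.46 and 9.60 in fMLP_WT, 8.35, 8.92 and 9.43 in unstim_KO, and 8.37, 8.58 and 9.72 in unstim_WT. Its fMLP and unstimulated values overlapped within set 2, with a log2 difference of -0.26 (SE 0.23, limma adjusted p = 0.648). Il18rap (chromosome 1), the accessory chain of the IL-18 receptor, read 10.97 and 9.87 in fMLP_KO, 11.08 and 11.15 in fMLP_WT, 9.10, 8.95 and 11.25 in unstim_KO, and 9.07, 9.30 and 11.29 in unstim_WT. All 4 fMLP arrays were below the 2 unstimulated arrays of set 2, by a log2 difference of -0.51 (SE 0.26, limma adjusted p = 0.424).

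Of the 3 inflammasome components none passed the test. Nlrp3 (Entrez gene 216799, chromosome 11), the sensor, read 10.22 and 9.12 in fMLP_KO, 10.18 and 10.51 in fMLP_WT, 7.86, 8.46 and 9.80 in unstim_KO, and 7.97, 8.43 and 9.94 in unstim_WT. As for Il1r2, 3 fMLP arrays were above all unstimulated arrays and fMLP_KO replicate 2 was below those of set 2, so that the log2 difference was 0.14 (SE 0.31, limma adjusted p = 0.860). Pycard (Entrez gene 66824, chromosome 7), the adaptor, read 9.22 and 8.60 in fMLP_KO, 9.35 and 9.45 in fMLP_WT, 9.04, 9.12 and 9.71 in unstim_KO, and 9.15, 9.07 and 9.74 in unstim_WT. Casp1 (Entrez gene 12362, chromosome 9), the protease, read 8.51 and 7.43 in fMLP_KO, 8.75 and 8.73 in fMLP_WT, 7.26, 7.44 and 8.81 in unstim_KO, and 7.64, 7.61 and 9.17 in unstim_WT. For both, every fMLP array was below both unstimulated arrays of set 2. The log2 difference of Pycard was -0.57 (SE 0.16, limma adjusted p = 0.162) and that of Casp1 was -0.64 (SE 0.25, limma adjusted p = 0.290).

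With all arrays, 0 of the 8 tested members passed for fMLP against unstimulated (limma, adjusted p below 0.05), where 0.341% of all tested genes did, and 2 members (Pycard and Casp1) had an unadjusted p below 0.05, as did 14.6% of all genes. The median log2 difference was -0.29 over the 8 members and -0.02 over all tested genes. These medians were -0.11 and -0.01 without fMLP_KO replicate 2. In array set 2, Il1b was the 1 tested member higher on all 4 fMLP arrays without overlap, a pattern shared by 11.9% of all genes. The dim Il1a, which was not tested, showed the same pattern. Il1rn, Il18rap, Pycard and Casp1 were the 4 members lower on all 4, as were 20.2% of all genes. In wild type cells alone 0 of 8 passed (0.0782% of all genes did), with 0 at an unadjusted p below 0.05 (8.05% of all genes). In knockout cells alone 0 of 8 passed as well (0.0853% of all genes did), with 3 at an unadjusted p below 0.05 (14.7% of all genes).

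Leaving out fMLP_KO replicate 2 changed which members passed. All 8 tested members read lower on that array than on average over the remaining 3 fMLP arrays, with a median log2 difference of -0.94 (range -1.24 to -0.71). Of all genes 59.9% were lower there, and their median difference was -0.11. Without it, Pycard fell by 0.42 (SE 0.09, adjusted p = 0.0189) and Casp1 by 0.37 (SE 0.09, adjusted p = 0.0360) on the log2 scale after fMLP (limma). These were the 2 members called lower, as were 3.79% of all genes. No member was called higher, against 6.36% of all genes. An unadjusted p below 0.05 (limma) was reached by 4 members, Pycard, Casp1, Il1b and Il1r2, and by 24.2% of all genes. Il1b then differed by 0.91 (SE 0.40, adjusted p = 0.190), Il1r2 by 0.94 (SE 0.31, adjusted p = 0.0897) and Nlrp3 by 0.42 (SE 0.19, adjusted p = 0.213), all by limma. Il1b, Il1r2 and Nlrp3 were above both unstimulated arrays of set 2 on each of the 3 remaining fMLP arrays, as were 26.8% of all genes. The 4 members below on each were again Il1rn, Il18rap, Pycard and Casp1, as were 28.7% of all genes. Without fMLP_KO replicate 1 in its place, so that replicate 2 alone stood for knockout cells after fMLP, these 4 were called lower after fMLP (limma), as were 16.9% of all genes.

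**Figure D2:**
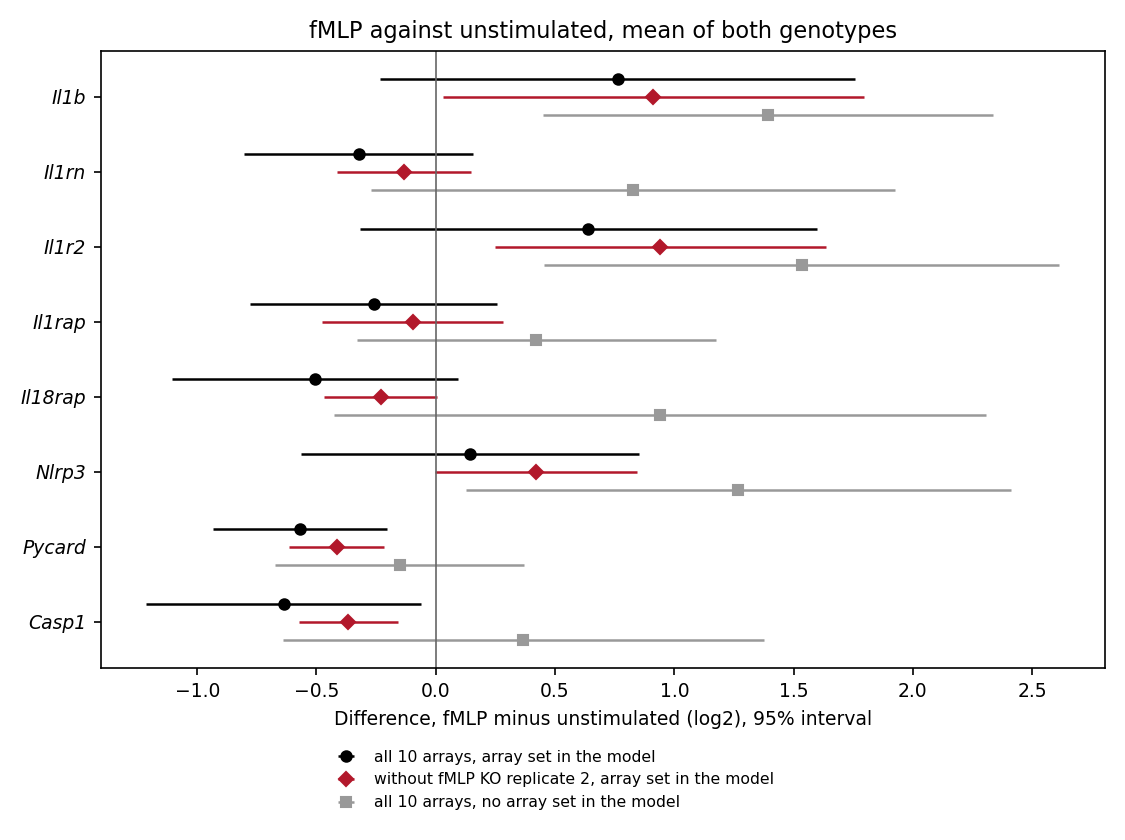
Difference between fMLP and unstimulated cells on the log2 scale (horizontal axis, bars are 95% intervals of the limma fit) for the 8 tested genes. Circles use all 10 arrays with the array set in the model, diamonds leave out fMLP KO replicate 2, and squares leave the array set out of the model. The diamonds of Pycard (-0.42) and Casp1 (-0.37) lie below 0 with their intervals, and so do the circles of these genes. The diamonds of Il1b (0.91) and Il1r2 (0.94) lie above 0 with their intervals. The intervals are not adjusted for the number of genes. The squares lie to the right of the circles for all 8 genes.

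The blocks used for the unstimulated arrays also moved these calls. Among unstimulated arrays, all 8 tested members had a lower mean on set 1 than on set 2, with a median log2 difference of -1.42. Of all genes 52.2% were lower, with a median of -0.09. The dim, untested Il1a and Il18 had a higher mean on set 1, by 0.48 and 0.06. The bright neutrophil markers were lower on set 1 as well, with list means of 12.45 to 12.82 against 13.61 to 13.64. Without the array set in the model the fMLP differences were therefore more positive, at 1.39 for Il1b, 1.53 for Il1r2 and 1.27 for Nlrp3, and those of Il1rn (0.83), Il1rap (0.42), Il18rap (0.94) and Casp1 (0.37) turned positive, with 0 of 8 passing. With the replicate number as a block in place of the array set, 7 members were called higher and 0 lower after fMLP. In that model fMLP replicates 1 and 2 are set against unstimulated replicates 1 and 2, all of set 1, and 46.2% of all genes were called higher.

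Within set 1, replicate 2 was above replicate 1 in both genotypes for 5 of the 8 tested members and for 25.6% of all genes. Il1b differed between these replicates by 1.65 in knockout and 0.78 in wild type, and Il1r2 by 1.08 in knockout and 0.97 in wild type, on the log2 scale. When set 1 was divided by replicate number, a choice made after seeing this, and fMLP_KO replicate 2 was left out, the fMLP differences were the same as those given above without that array. Il1b (adjusted p = 0.00426), Il1r2 (adjusted p = 7.79e-05) and Nlrp3 (adjusted p = 0.0181) were then called higher, as were 10.8% of all genes (limma). Pycard (adjusted p = 0.00621) and Casp1 (adjusted p = 0.0122) were called lower, as were 8.07% of all genes (limma). With fMLP_KO replicate 2 kept, 0 of 8 passed under that division.

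Markers of other cells moved with fMLP as well. The mean of 10 monocyte and macrophage markers was 8.30 to 9.14 on the fMLP arrays, against 9.77 to 10.16 on the unstimulated arrays of set 2, and 3 of the 9 tested were called lower (5 without fMLP_KO replicate 2). The mean of 12 eosinophil, basophil and mast cell markers was 7.62 to 8.27 on the fMLP arrays, against 9.38 to 9.46, and 6 of the 9 tested were called lower (7 without that array). On the unstimulated arrays of set 1, the monocyte and macrophage mean was 8.38 to 8.58. The eosinophil, basophil and mast cell mean there was 8.29 to 8.51. Epx, an eosinophil granule gene, read 7.49 to 8.08 on the fMLP arrays. Its unstimulated values were 11.11 to 11.21 on set 2 and 8.19 to 8.68 on set 1. The monocyte gene Csf1r read 9.10 on fMLP_KO replicate 2 and 10.14 to 10.38 on the other fMLP arrays. Unstimulated, Csf1r read 10.45 to 10.71 on set 2 and 8.69 to 9.19 on set 1. The T and NK cell markers averaged 8.09 to 9.01 on the fMLP arrays and at most 8.16 on the unstimulated arrays of both sets. Cd3e read 9.20 to 10.10 on the fMLP arrays. Its unstimulated values were 8.66 to 8.86 on set 2 and 8.93 to 9.01 on set 1. Without fMLP_KO replicate 2, 4 of 6 T and NK cell markers and 1 of 5 erythroid markers were called higher, 2 of 7 dendritic cell markers were called lower, and of 9 B cell markers 5 were called higher and 1 lower. The neutrophil list averaged 13.07 to 13.63 on the fMLP arrays, with 0 of 12 called. Its unstimulated means were 13.61 to 13.64 on set 2 and 12.45 to 12.82 on set 1. Every list but the neuron list had its lowest fMLP mean on fMLP_KO replicate 2. The neutrophil mean was 13.07 there, against 13.52 to 13.63 on the other fMLP arrays. Monocytes and other myeloid cells also express several members, and the part of these cells in the results was not tested. In such samples, fewer cells of a type and less RNA per cell cannot be told apart.

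The genotype comparison asked whether the loss of Lcn2 changed these genes. In unstimulated cells, 0 of the 8 tested members differed between knockout and wild type (limma, all adjusted p = 1), and 0.00711% of all genes were called, which is Lcn2 alone. The log2 differences ranged from -0.30 to 0.01, with a median of -0.07 (0.01 over all genes), and 0 members had an unadjusted p below 0.05 (0.533% of all genes did). The 95% interval for Il1b, -0.98 to 0.90, was wide, and that for Pycard, -0.37 to 0.32, was the narrowest of the 8. These widths rest on a spread shared by all 4 groups, fMLP_KO replicate 2 included, and not on the unstimulated arrays alone. They also depend on the block. With set 1 divided by replicate number, a choice made after seeing the data, the interval was -0.59 to 0.51 for Il1b. For Pycard it was then -0.41 to 0.36. Casp1 had the lowest difference, -0.30 (SE 0.24, unadjusted p = 0.236, limma, 95% interval -0.85 to 0.24). It was the 1 member that was lower in knockout than in wild type without overlap in set 1 and also lower in set 2, as were 6.44% of all genes. Without fMLP_KO replicate 2 in the shared model the same Casp1 difference had an SE of 0.08 (limma, unadjusted p = 0.00404, adjusted p = 0.994).

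After fMLP, 0 of 8 members were called between knockout and wild type (0.00711% of all genes were), and all 8 differences were below 0, with a median of -0.50, while 56.7% of all genes were below 0, with a median of -0.05. Both fMLP_KO arrays were below both fMLP_WT arrays for 5 members, Il1b, Il1rap, Il18rap, Pycard and Casp1, as for 26.0% of all genes. Casp1 differed by -0.77 (SE 0.29, limma adjusted p = 0.416) and Pycard by -0.49 (SE 0.18, limma adjusted p = 0.416). An unadjusted p below 0.05 (limma) was reached by 3 members, Il18rap, Pycard and Casp1, and by 8.40% of all genes. These were 0 members and 1.81% of all genes without fMLP_KO replicate 2. Without fMLP_KO replicate 2, the array with neuron transcripts, the median was -0.13 with 6 of 8 below 0, Casp1 differed by -0.23 (SE 0.12) and Pycard by -0.18 (SE 0.12), and the adjusted p of all 8 rounded to 1 (limma). Without fMLP_KO replicate 1 instead, 7 of 8 were called lower in knockout (limma), as were 31.3% of all genes. The difference of the fMLP response between the genotypes was tested as an interaction, in which 0 of 8 members (and 0% of all genes) were called, with an adjusted p of at least 0.776 (limma) and 0 members at an unadjusted p below 0.05. Without fMLP_KO replicate 1, 6 members were called lower in the interaction, as were 24.0% of all genes.

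**Figure D3:**
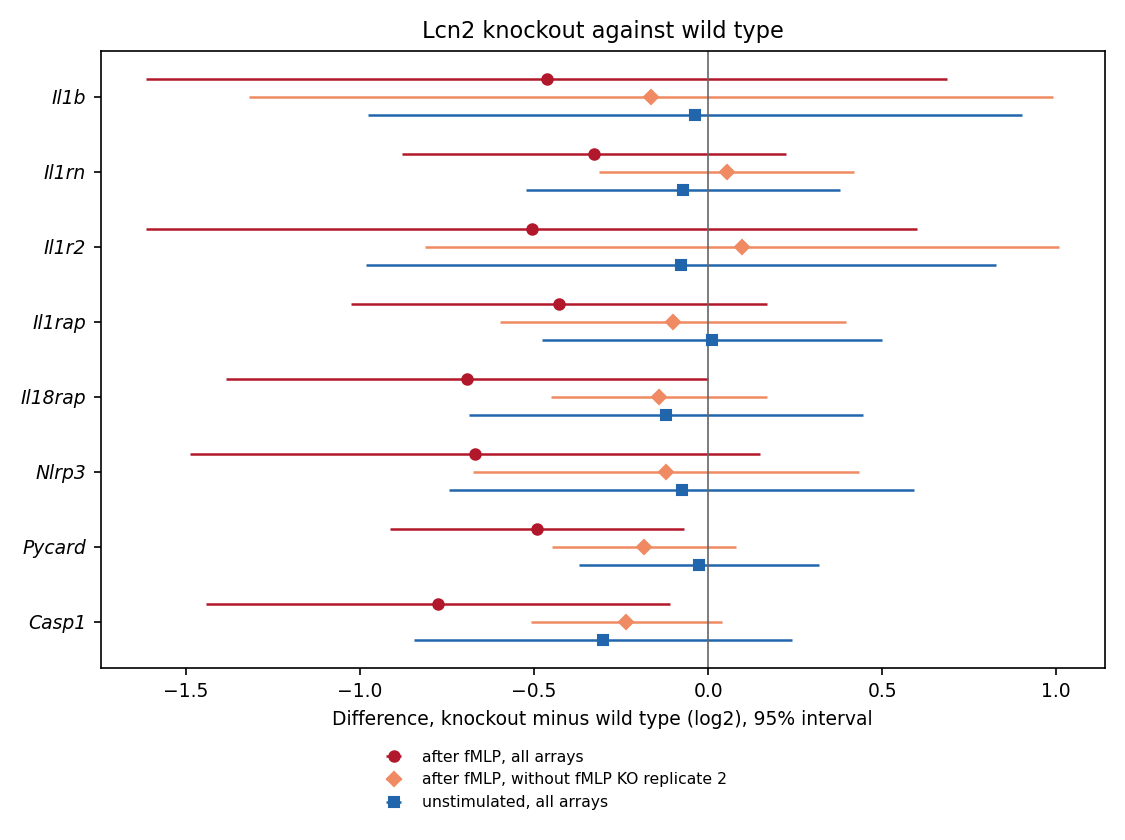
Difference between Lcn2 knockout and wild type on the log2 scale (horizontal axis, bars are 95% intervals of the limma fit) for the 8 tested genes. Circles show cells after fMLP, diamonds the same without fMLP KO replicate 2, and squares unstimulated cells. The circles lie below 0 for all 8 genes with a median of -0.50, the diamonds have a median of -0.13, and the squares run from -0.30 to 0.01.

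The rest of the pathway was read from a list of 49 genes, of which 43 had a probe set and 31 were tested. With all arrays 0 of the 31 were called in any comparison. Their median log2 difference after fMLP was -0.20, against -0.02 over all tested genes. These medians were 0.01 and -0.01 without fMLP_KO replicate 2. Without fMLP_KO replicate 2, 2 of the 31 were called higher and 0 lower, where 6.36% of all genes were called higher and 3.79% lower, so the higher count is near the background. Tollip, an adaptor that restrains signalling from IL-1 receptors, read 10.79 and 10.23 in fMLP_KO, 10.82 and 10.90 in fMLP_WT, 9.56, 9.48 and 10.37 in unstim_KO, and 9.63, 9.44 and 10.33 in unstim_WT. It rose by 0.47 (SE 0.10, limma adjusted p = 0.0155) without that array, and differed by 0.33 (SE 0.15, limma adjusted p = 0.379) with it. Irak2, a kinase-like adaptor of the same receptors, read 10.45 and 9.51 in fMLP_KO, 10.48 and 10.56 in fMLP_WT, 9.43, 9.13 and 10.04 in unstim_KO, and 9.37, 9.24 and 10.10 in unstim_WT. It rose by 0.41 (SE 0.11, limma adjusted p = 0.0404) without that array, and differed by 0.18 (SE 0.23, limma adjusted p = 0.762) with it. For both genes the other 3 fMLP arrays were above all 6 unstimulated arrays.

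By role, and with all arrays, the ligands and binding proteins had a median of -0.30 over 2 tested genes, Il36g at -0.39 and Il18bp, which neutralises IL-18, at -0.22. The 2 tested receptors were Il18r1, the ligand-binding chain of the IL-18 receptor, at -0.62 (SE 0.22, limma adjusted p = 0.249), and the inhibitory receptor Sigirr at 0.03. The 11 genes of receptor signalling had a median of 0.17, with Tab1 at 0.26 and Tab2 at -0.43, both adaptors of the kinase TAK1. The 8 inflammasome sensors and partners had a median of -0.27, and the 3 of smallest p were Naip2, a sensor of bacterial secretion systems, at -0.51, Mefv, the pyrin gene, at -0.31 and Nek7, which binds NLRP3, at -0.34. The 8 caspases, pore formers and triggers had a median of -0.19, with the ATP-gated channel P2rx7 at -0.23, the channel Panx1 at 0.21 and Casp8 at -0.28. None of these log2 differences passed the test. Left without fMLP_KO replicate 2, the medians were -0.08 for ligands and binding proteins, -0.11 for receptors and 0.15 for receptor signalling. They were -0.09 for inflammasome sensors and partners and 0.02 for caspases, pore formers and triggers.

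**Figure D4:**
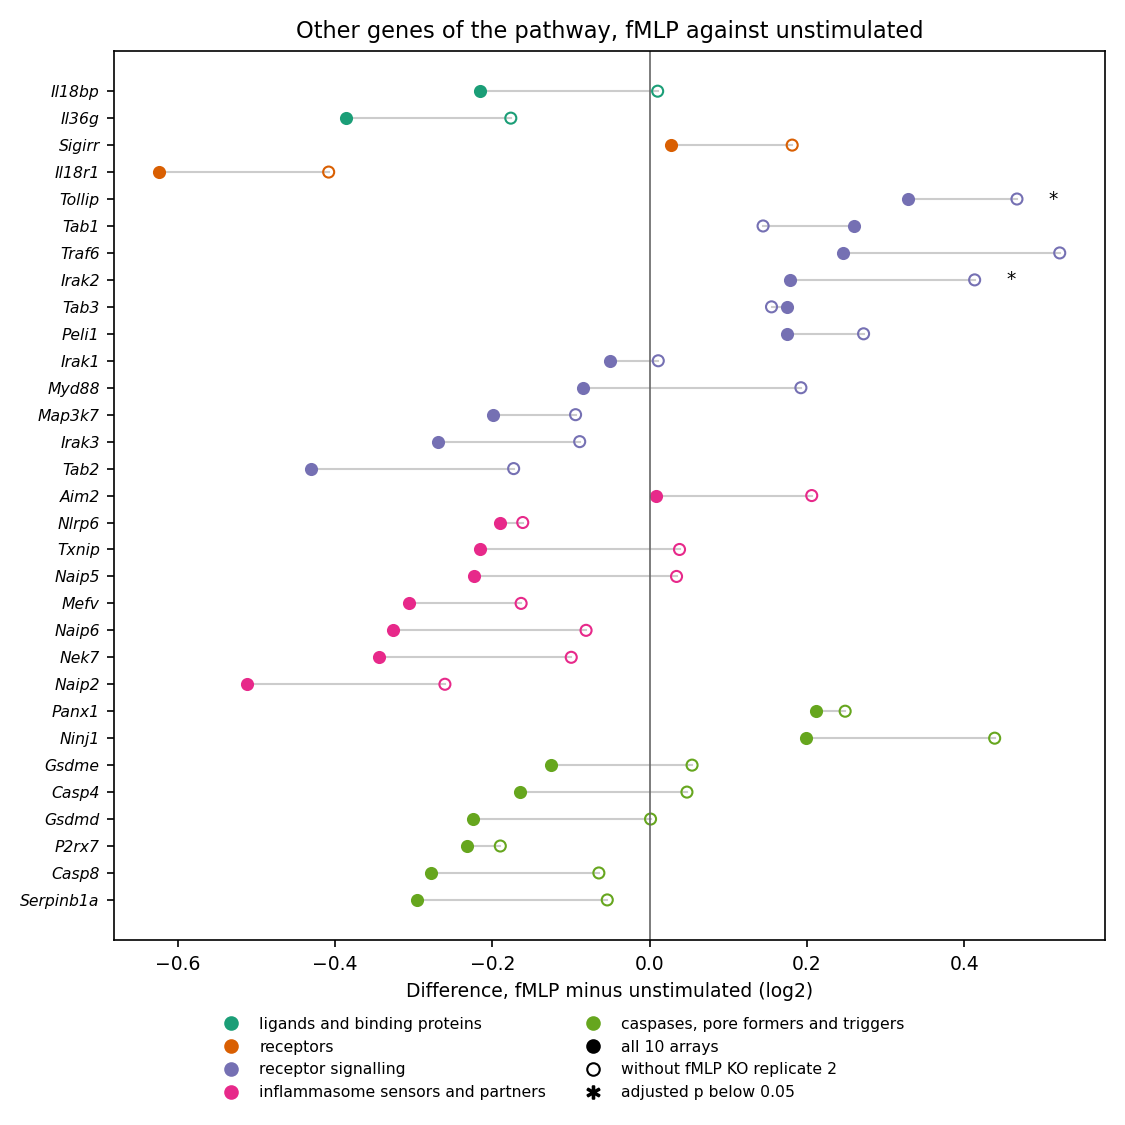
Difference between fMLP and unstimulated cells on the log2 scale (horizontal axis) for the 31 tested genes of the wider pathway, coloured by role. Filled points use all 10 arrays and open points leave out fMLP KO replicate 2. The star marks Tollip (0.47) and Irak2 (0.41), the 2 genes called without that array.

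The genes most like 3 of the members were sought by the mean absolute difference of values over the 10 arrays, each gene centred on its own mean. These arrays share the array sets, so the likeness includes the set difference and is a description. Nearest to Il1b were Trem1, a receptor that amplifies inflammation (0.198), Ptgs2, which encodes cyclooxygenase 2 (0.200), Il1r2 (0.208), the kinase Sgk1 (0.223) and the kinase Pim1 (0.241), in log2 units. Nearest to Il1r2 were Odc1, the first enzyme of polyamine synthesis (0.181), Dhrs11 (0.190), Cytip (0.198), Hdc, the enzyme that makes histamine (0.199), and Plekho2 (0.200). Nearest to Nlrp3 were Tnfaip2 (0.0854), Apbb1ip (0.0909), Arrdc3 (0.0964), Esco1 (0.100) and Dennd1b (0.108).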

How the data were processed

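The authors deposited RMA values, read here as log2, which were made in Affymetrix Expression Console, per the submitters' processing notes. No source used here states the log base, and log2 was inferred from the range of the values. RMA subtracts background, equalises the distributions of arrays processed together and summarises probes. The sources used here do not say whether RMA was run once over all arrays, which could bear on the 2 array sets. No raw scans were used here.

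Of 35556 probe sets, 21789 name 1 gene, 1621 several and 12146 none in the platform annotation. Each of 19938 genes was given by its brightest single-gene probe set, and 14070 genes with at least 2 arrays above the median of all values (8.18) were tested. R version 4.3.3 and limma version 3.58.1 fitted a mean for each of 4 groups and a term for the array set (interquartile range below or above 2) to all 10 arrays. Tests were two-sided, with Benjamini-Hochberg adjustment over the 14070 genes, and a gene was called where the adjusted p was below 0.05. A log2 difference is fMLP minus unstimulated or knockout minus wild type. The script was tested on simulated data. The number of arrays limits the precision.

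The array set, members, lists and most alternatives were chosen with earlier results of these data known. Named were all members, Lcn2, called pathway genes with up to 3 of smallest p per role, and the 5 genes most like Il1b, Il1r2 and Nlrp3. The TATA box was added to the motif list after the promoters were seen, and Xist and Eif2s3y were named after their values were seen. No 2 arrays were identical. Same-numbered unstimulated arrays of the 2 genotypes deviated together (r = 0.949, 0.929 and 0.988 over genes), which the array set shares. Within set 1 the replicate differences of the 2 genotypes correlated at r = 0.464, and after fMLP at r = 0.0598.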

Additional observations from a re-analysis of the deposited data

How the results depend on the processing

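With the replicate number as a block in place of the array set, 7 members were called for fMLP on average, 7 in wild type and 5 in knockout, all higher, where 11758, 11384 and 10444 of all 14070 genes were called in either direction. With set 1 divided by replicate and fMLP_KO replicate 2 left out, an alternative added after seeing the data, these counts were 5, 5 and 2, where 2659, 1782 and 1104 of all genes were called. Under the replicate block the fMLP differences were 1.40 for Il1rn, 0.76 for Il1rap, 1.66 for Il18rap, 0.87 for Casp1 and 0.0571 for Pycard, all above 0, and with no array set they were 0.83, 0.42, 0.94 and 0.37 for the first 4. Leaving out 1 array at a time gave 0 to 4 members for fMLP on average, 0 in wild type, 0 to 5 in knockout, 0 to 7 for knockout against wild type after fMLP and 0 to 6 for the interaction. The highest counts came without fMLP_KO replicate 1, when replicate 2 is the only fMLP_KO array and 4055 of all genes were called for fMLP on average, 5429 in knockout, 6401 between the genotypes after fMLP and 4924 in the interaction. The lone array is then assumed to vary like the other groups. The fMLP difference of Nlrp3 ran from -0.13 to 0.42 over these. The replicate block changed no call of a member between knockout and wild type, but 0 genes were called after fMLP, against 1 (Lcn2) with the array set. Small unstimulated genotype differences changed sign: Il1b was 0.11 in set 1 only, and Il1rap was -0.28 in set 2 only and -0.0040 after median centring. Over single arrays left out they ran from -0.55 to 0.39 for Il1b, -0.18 to 0.0474 for Il1rn, -0.40 to 0.21 for Il1r2, -0.19 to 0.16 for Il1rap and -0.26 to 0.0867 for Nlrp3. Over all genes, 48 were called for fMLP, against 10 without the array set, 0 in set 2 only and 1428 without fMLP_KO replicate 2. The filter, normalization, probe set and variance alternatives moved no member across the threshold in the fMLP mean. Of these, only the normalization alternatives could change a member's difference, as each member has 1 single-gene probe set. The others could act on its p-value or adjusted p only.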
